A study of Mus musculus with 12 samples.

Results

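The genes described here are 8 regulators and markers of the sinoatrial node, the pacemaker of the heart. Tbx3, Tbx18, Shox2 and Isl1 encode transcription factors, and Vsnl1, Smoc2, Cpne5 and Ntm are transcripts known as markers of node tissue. They were taken by gene symbol and are 8 of the 51826 entries of the deposited table.

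The sinoatrial node is a small group of specialized cardiomyocytes at the junction of the superior vena cava and the right atrium, and it starts each heartbeat. Shox2 and Isl1 keep the pacemaker program on in these cells, Tbx3 represses genes of the working atrial myocardium, and Tbx18 directs formation of the node head in the embryo. Outside the node, Tbx3 is also known from the atrioventricular conduction system, Tbx18 from epicardium and pericytes, and Smoc2 from fibroblasts.

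CUG960 +dox mice were homozygous for TREDT960I, a doxycycline-inducible transgene that makes RNA with 960 interrupted CUG repeats among human DMPK exons, and hemizygous for MHCrtTA, in which the α myosin heavy chain promoter drives the transactivator in cardiomyocytes. MHCrtTA +dox controls were hemizygous for the transactivator alone and also ate dox chow, so that the transactivator and dox were common to both groups. All were female FVB mice, induced from postnatal day 1 and 10 weeks old. The study asked how gene expression differs with the repeat RNA in atria and in ventricles, and 12 libraries came from both chambers of 6 mice, V327, V333 and V334 as controls and V119, V120 and V123 as CUG960. Each of the 4 groups thus held 3 libraries. The atrial libraries were of atrial tissue as a whole, and no library was of the isolated node.

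Totals per library lay between 116127966 and 160676189 counts. In atria the CUG960 totals (116127966 to 134863462) were all lower than those of controls (136770774 to 149950077). In ventricles they were all higher (140987828 to 160676189 against 129140369 to 133480610). Depth and genotype therefore cannot be told apart within a chamber, although levels are given as CPM, counts scaled to a common library size by TMM. At this depth 3 counts correspond to between 0.0172 and 0.0285 CPM. In whole tissue, fewer cells of a type and less RNA per cell cannot be told apart.

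The chamber labels were checked with markers of cardiomyocytes. All 5 atrial markers (Myl7, Myl4, Sln, Nppa, Bmp10) were higher in atria and all 5 ventricular markers (Myl2, Myl3, Irx4, Hey2, Lbh) were higher in ventricles, in both genotypes by edgeR. The most abundant genes of these lists were Nppa, the atrial natriuretic peptide, at 15894 ± 1098 CPM (SD, n = 3) in control atria and 62.6 ± 19.5 CPM in control ventricles, and Myl2, the ventricular myosin light chain, at 18.0 ± 13.5 and 9407 ± 1027 CPM.

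Certain libraries stood apart from the others of their group. The V327 atrial library (control) had 33.5 CPM of Myl2, against 8.82 to 11.7 CPM in the other 5 atrial libraries, and it also had the most Shox2 and Isl1 of the 6. The V120 atrial library (CUG960) was high in Shox2. Among CUG960 ventricles, V123 carried atrial transcripts, with Myl7 at 55.9 CPM against 0.192 CPM in V119 and 0.304 CPM in V120. Control ventricles lay between these, at 4.98 to 19.3 CPM of Myl7.

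Sequence upstream of the start site is shown for Vsnl1 and Tbx18, whose atrial groups did not overlap between genotypes, and for Shox2, which was high in 1 atrial library of each genotype. The bases are from RefSeq on GRCm38.p6, 5′ to 3′ on the strand of the gene, which is the minus strand for each. They lie at chr12:11436614-11436828 for Vsnl1, chr9:87731261-87731510 for Tbx18 and chr3:66981772-66982021 for Shox2, outside the transcribed part of the gene. Capitals mark the letters TATAAA.
Vsnl1: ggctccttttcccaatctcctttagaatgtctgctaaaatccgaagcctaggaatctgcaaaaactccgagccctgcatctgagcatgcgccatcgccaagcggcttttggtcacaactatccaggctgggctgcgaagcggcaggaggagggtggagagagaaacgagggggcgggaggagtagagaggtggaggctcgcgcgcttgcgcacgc
Tbx18: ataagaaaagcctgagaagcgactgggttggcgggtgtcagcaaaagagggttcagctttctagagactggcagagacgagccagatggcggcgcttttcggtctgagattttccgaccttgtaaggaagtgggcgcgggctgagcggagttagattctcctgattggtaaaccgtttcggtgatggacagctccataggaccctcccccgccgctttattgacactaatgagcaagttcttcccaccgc
Shox2: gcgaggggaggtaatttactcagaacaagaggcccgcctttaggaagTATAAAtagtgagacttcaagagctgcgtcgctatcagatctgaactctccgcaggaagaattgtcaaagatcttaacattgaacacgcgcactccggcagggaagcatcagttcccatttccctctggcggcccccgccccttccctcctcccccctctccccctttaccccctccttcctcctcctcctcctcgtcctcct
Windows of 250 bases before the start were matched for 6 of the genes (Tbx18, Shox2, Isl1, Vsnl1, Cpne5 and Ntm), 8 windows in all. They were searched on both strands for the T-box core AGGTGT, which 11.8% of 32851 RefSeq windows of this length hold, the homeodomain core TAATTA (4.84%), the GATA core AGATAA (9.99%) and the TATA box TATAAA (12.4%). TATAAA at 203 bases before the start of Shox2 was the one match, and it overlapped no other motif. The other 7 windows held none of these letters.

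Levels of different genes were compared per kilobase of exon. In control atria, Smoc2 was highest at 6.58 ± 0.741 CPM per kb (n = 3). Tbx18 (2.97 ± 0.367), Vsnl1 (2.52 ± 0.823) and Cpne5 (2.34 ± 0.203) came next. The range of Vsnl1 overlapped with both of the others, while Tbx18 lay above Cpne5 without overlap. Tbx3 (0.615 ± 0.193) and Shox2 (0.485 ± 0.388) overlapped as well. Ntm stood below them at 0.109 ± 0.0109 CPM per kb, and Isl1 was last at 0.0070 ± 0.0098.

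This order differed by chamber and genotype. In CUG960 atria, Vsnl1 (6.99 ± 0.813 CPM per kb) and Smoc2 (6.02 ± 0.704) shared the top with overlapping ranges. In control ventricles, Smoc2 (16.6 ± 1.33) was followed by Tbx18 (2.12 ± 0.150) and Tbx3 (1.62 ± 0.0644), which did not overlap, and Cpne5 (0.0285 ± 0.0038) and Vsnl1 (0.0173 ± 0.0076) were the lowest of the genes with counts. In CUG960 ventricles the ranges of Tbx18 (1.52 ± 0.385) and Tbx3 (1.29 ± 0.106) overlapped.

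**Figure D1:**
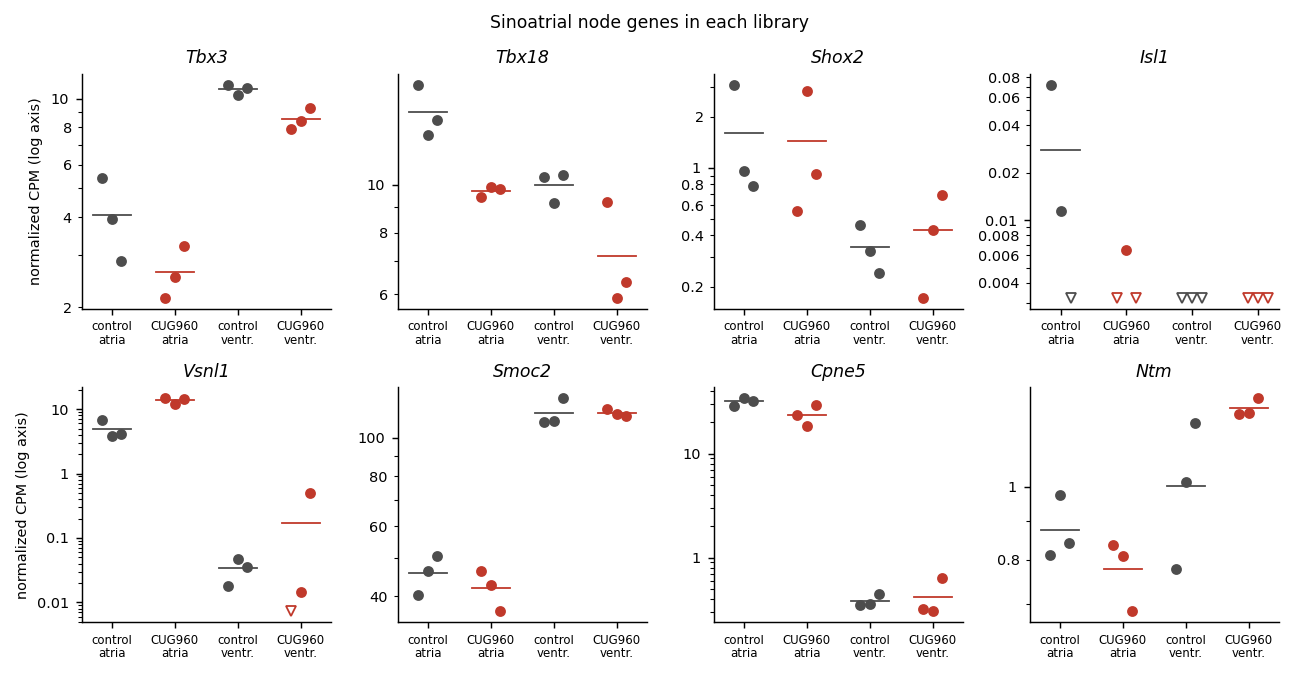
Normalized CPM (log axis) of the 8 genes in each of the 12 libraries, by genotype and chamber, with 1 point per mouse and the group mean as a line; open triangles at the bottom are libraries with 0 counts. Vsnl1 is the gene whose CUG960 atria (11.9 to 14.9 CPM) lie clearly above control atria (3.83 to 6.78 CPM), and Tbx3 and Smoc2 are higher in ventricles than in atria.

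The first comparison asked whether the node genes differed between CUG960 and control atria. Vsnl1 rose 2.77-fold. None of the other 6 genes tested was called. Called genes had an adjusted P value under 0.05 in the quasi-likelihood test of edgeR (Benjamini-Hochberg method, over all genes tested) and a fold change of at least 1.5. The count of 1 in 7 stands beside 5.49% of the 17650 genes tested in atria. DESeq2 called 2 of the 7, Vsnl1 and Tbx3, and 4 had an unadjusted P value under 0.05, as 30.2% of all genes did. The median log2 fold change was -0.17 over the 7 genes and -0.0088 over all genes, and 6 of the 7 had a negative value. Isl1 had too few counts to be tested.

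Tbx3 (chr5:119670669-119684724, plus strand; coordinates here and below are GRCm38) was at 5.41 CPM in V327, 3.95 CPM in V333 and 2.86 CPM in V334 among control atria. In CUG960 atria it was at 2.15 CPM in V119, 2.53 CPM in V120 and 3.20 CPM in V123. The groups overlapped, since V123 was above V334. The log2 fold change was -0.63 ± 0.24 (SE), with an adjusted P value of 0.12 by edgeR. It was 0.034 by DESeq2, and 0.046 by edgeR without V334 (log2 fold change of -0.83), so the call depended on the tool and on 1 mouse. Without V327, the highest control, it was -0.38 with an adjusted P value of 0.29 by edgeR.

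Tbx18 (chr9:87702800-87731260, minus strand) was lower in each CUG960 atrial library than in any control. Control atria had 16.0 CPM in V327, 12.6 CPM in V333 and 13.5 CPM in V334, and CUG960 atria had 9.43 CPM in V119, 9.90 CPM in V120 and 9.80 CPM in V123. The log2 fold change was -0.53 ± 0.096, with an adjusted P value of 0.010 by edgeR's quasi-likelihood test. This was under the fold change limit. Without V333 it was past both limits, at -0.60 with an adjusted P value of 0.015 by edgeR. Without V327, the highest control, it was -0.43 with an adjusted P value of 0.021 by edgeR.

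Shox2 (chr3:66971727-66981771, minus strand), a homeodomain factor that holds Nkx2-5 in check in the node, varied more between mice than between the genotype means. It was at 3.08 CPM in V327, 0.954 CPM in V333 and 0.778 CPM in V334 among controls. In CUG960 atria it was at 0.559 CPM in V119, 2.82 CPM in V120 and 0.919 CPM in V123. V327 and V120, of different genotypes, were each above the other 4 libraries. On the log2 scale the fold change was -0.16 ± 0.67, with an adjusted P value of 0.90 by edgeR, and it was 0.72 without V327 and -1.11 without V120.

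Isl1 (chr13:116298281-116309689, minus strand), a LIM-homeodomain factor, was close to absent. Atrial counts were 11 in V327, 2 in V333 and 0 in V334 for controls, and 0 in V119, 1 in V120 and 0 in V123 for CUG960. Each of the 6 ventricular libraries had 0 counts, which allows up to 0.0285 CPM. No fold change was computed for the genotypes.

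**Figure D2:**
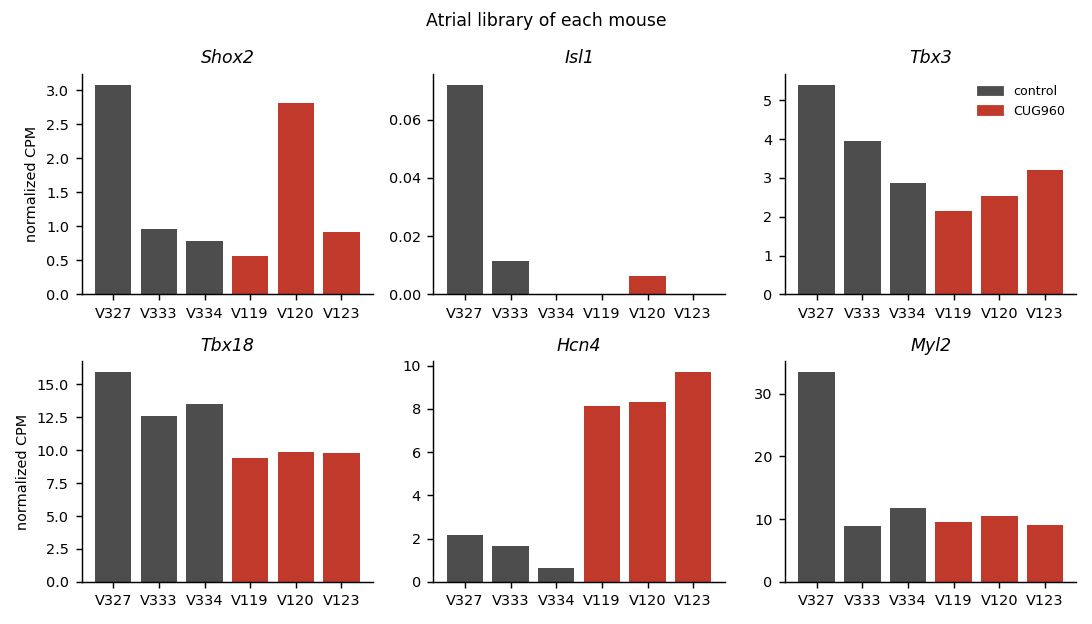
Normalized CPM in the atrial library of each mouse (grey, control; red, CUG960) for Shox2, Isl1, Tbx3, Tbx18 and, for reference, the pacemaker channel Hcn4 and the ventricular light chain Myl2. V327 has the highest bar for each gene except Hcn4, V120 is the second library high in Shox2, and Tbx18 and Hcn4 separate the genotypes in opposite directions.

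V327 was thus the highest atrial library for each of the 4 transcription factors. Hcn4, the main pacemaker channel, was at 2.16 CPM in V327, 1.65 CPM in V333 and 0.644 CPM in V334, and at 8.11 to 9.71 CPM in CUG960 atria. The part of tissue sampling in these differences was not tested. Control ventricles, which contain no sinoatrial node, had more Hcn4 (6.55 ± 1.84 CPM) than control atria (1.49 ± 0.772 CPM). CUG960 ventricles had 14.2 ± 6.65 CPM.

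Vsnl1 (chr12:11325242-11436613, minus strand), which encodes visinin-like 1, a calcium sensor of neurons and node cells, rose in every CUG960 atrial library. Control atria had 6.78 CPM in V327, 3.83 CPM in V333 and 4.18 CPM in V334. CUG960 atria had 14.9 CPM in V119, 11.9 CPM in V120 and 14.3 CPM in V123, and the lowest of them was above the highest control. The log2 fold change was 1.47 ± 0.21, with an adjusted P value of 0.0037 by edgeR.

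The Vsnl1 call held without each mouse in turn, with log2 fold changes of 1.32 to 1.76 and adjusted P values of 0.0010 to 0.020 by edgeR. It was lost when all 12 libraries shared a single fit, where the log2 fold change was again 1.47 and the adjusted P value was 0.098. That fit shares 1 spread with the ventricles, where counts were between 0 and 62.

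Smoc2 (chr17:14279506-14404790, plus strand) encodes a secreted matricellular protein that binds calcium. Its control atria were at 40.3 CPM in V327, 46.2 CPM in V333 and 50.6 CPM in V334, and its CUG960 atria at 46.4 CPM in V119, 42.6 CPM in V120 and 36.7 CPM in V123. These ranges overlapped, and the log2 fold change was -0.13 ± 0.11 with an adjusted P value of 0.48 by edgeR.

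Cpne5 (chr17:29155556-29238167, minus strand) encodes copine 5, of a family of calcium-dependent membrane-binding proteins. Among control atria it was at 28.8 CPM in V327, 34.3 CPM in V333 and 32.3 CPM in V334, and among CUG960 atria at 23.7 CPM in V119, 18.6 CPM in V120 and 29.1 CPM in V123. V123 overlapped with the controls. Cpne5 had a log2 fold change of -0.42 ± 0.15, with an adjusted P value of 0.10 by edgeR. Without V123 it was -0.59 with an adjusted P value of 0.026, which passed both limits. Without V120 it was -0.27 with an adjusted P value of 0.21 by edgeR.

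Ntm (chr9:28994750-29963141, minus strand) encodes neurotrimin, a cell adhesion protein of the IgLON family. Control atria had 0.812 CPM in V327, 0.977 CPM in V333 and 0.842 CPM in V334, and CUG960 atria had 0.838 CPM in V119, 0.810 CPM in V120 and 0.684 CPM in V123. The groups overlapped, with a log2 fold change of -0.17 ± 0.18 and an adjusted P value of 0.56 by edgeR. Of the 7 genes tested, Vsnl1 and Tbx18 were the 2 whose genotypes did not overlap in atria, beside 35.7% of all genes tested there.

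**Figure D3:**
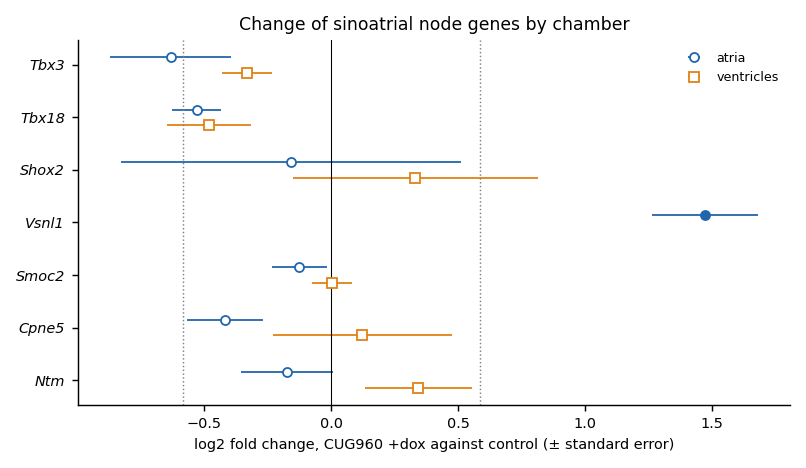
Log2 fold change of CUG960 +dox against control in atria (blue circles) and ventricles (orange squares) with the standard error as bars; filled symbols passed both limits, open ones did not, and dotted lines mark a 1.5-fold change. The atrial value of Vsnl1 (1.47) is the one filled symbol; Vsnl1 was not tested in ventricles, and Isl1 was tested in neither chamber.

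In ventricles, none of the 6 node genes tested was called by edgeR, beside 4.75% of the 16909 genes tested. DESeq2 called 0 as well, and 2 had an unadjusted P value under 0.05, as 25.7% of all genes did. The median log2 fold change was 0.063 over the 6 genes and -0.0094 over all genes. Tbx3 and Ntm were the 2 of 6 whose genotypes did not overlap, beside 31.2% of all genes.

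Ventricular Tbx3 was at 11.1 CPM in V327, 10.3 CPM in V333 and 10.8 CPM in V334, and at 7.92 CPM in V119, 8.39 CPM in V120 and 9.30 CPM in V123. Each CUG960 library was below each control. Its log2 fold change of -0.33 ± 0.10 had an adjusted P value of 0.068 by edgeR.

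Ventricular Tbx18 was at 10.4 CPM in V327, 9.19 CPM in V333 and 10.5 CPM in V334 among controls. Its CUG960 levels were 9.25 CPM in V119, 5.90 CPM in V120 and 6.35 CPM in V123, so that V119 alone reached the control range. The log2 fold change was -0.48 ± 0.16, with an adjusted P value of 0.10 by edgeR. Without V119 it was -0.71 with an adjusted P value of 0.012, past both limits. Without V120 it was -0.36 with an adjusted P value of 0.26 by edgeR.

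For Ntm, control ventricles had 0.777 CPM in V327, 1.02 CPM in V333 and 1.21 CPM in V334, and CUG960 ventricles had 1.25 CPM in V119, 1.25 CPM in V120 and 1.31 CPM in V123. For Ntm the log2 fold change was 0.34 ± 0.21, with an adjusted P value of 0.34 by edgeR, although the groups did not overlap. Smoc2 had nearly equal means, 115.2 ± 9.23 CPM in controls and 115.4 ± 2.37 CPM in CUG960 ventricles (n = 3 each), with a log2 fold change of 0.0036 ± 0.077. Shox2 had 0.342 ± 0.111 and 0.432 ± 0.262 CPM, and Cpne5 had 0.387 ± 0.0519 and 0.422 ± 0.189 CPM.

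Vsnl1 was too low in ventricles to be tested. Its counts were 2 in V327, 5 in V333 and 4 in V334 for controls, and 0 in V119, 2 in V120 and 62 in V123 for CUG960. The 62 counts of V123 were the one ventricular value well above the level of 3 counts.

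V123 ventricles also had the highest share of several other atrial transcripts. Relative to the atria of the same mouse, V123 ventricles held 3.47% of the level of Vsnl1, 2.20% of Cpne5, 2.22% of Myl7, 2.03% of Myl4 and 1.45% of Sln. In the 3 control mice, Myl7 was between 0.175% and 0.690%, Myl4 between 0.211% and 0.594% and Sln between 0.222% and 0.529%. V119 and V120 were below each control, at 0.0058% and 0.0105% of Myl7. They held 0.0803% and 0.114% of Myl4, and 0.0162% and 0.0226% of Sln. Bmp10, a growth factor of atrial myocardium, was at 0.0117% in V123 and was not highest there. It was at 0.121% to 0.362% in controls, and at 0.0024% in V119 and 0.0176% in V120. Nppa was not highest in V123 either, at 224 CPM in V120 and 151 CPM in V123 ventricles.

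**Figure D4:**
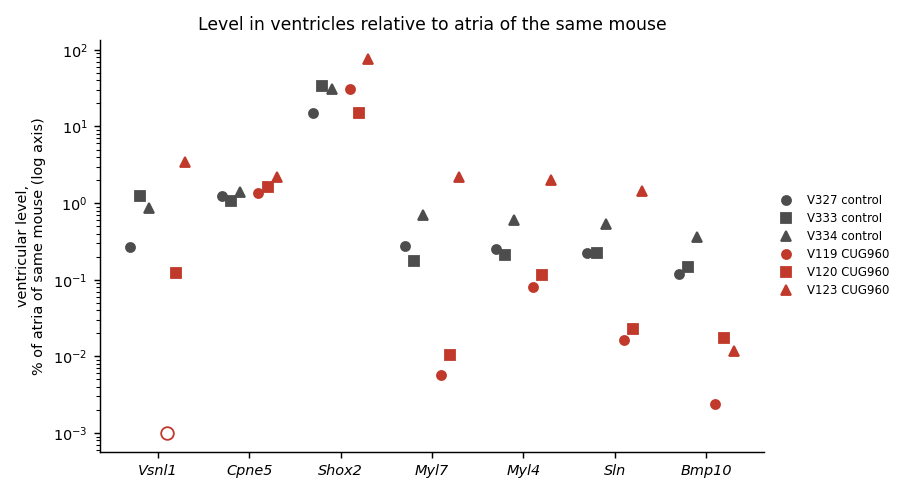
Ventricular level as a percentage of the atrial level of the same mouse (log axis) for Vsnl1, Cpne5, Shox2 and 4 atrial cardiomyocyte genes, with 1 symbol per mouse; the open circle is V119, which had 0 ventricular counts of Vsnl1. V123 is the highest of the 6 mice for each gene shown except Bmp10.

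The next comparison placed the node genes in the normal heart, control atria against control ventricles. Vsnl1, Cpne5 and Shox2 were higher in atria, and Tbx3 and Smoc2 were higher in ventricles, which contain no sinoatrial node. These 5 of 7 genes were called by edgeR, beside 34.9% of the 17451 genes tested. The median log2 difference was 0.48 over the 7 genes and 0.033 over all genes.

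Vsnl1 was 146-fold higher in control atria by group means (log2 difference of 7.15 ± 0.38, adjusted P value of 2.0e-06 by edgeR), against a sum of 11 counts in 3 ventricular libraries. With 1 mouse left out at a time, the log2 difference of Vsnl1 was 6.56 to 7.62. Cpne5 was 82.3-fold higher (6.35 ± 0.13, adjusted P value of 6.5e-08 by edgeR). Shox2 was 4.70-fold higher (2.22 ± 0.55, adjusted P value of 0.0089 by edgeR), and its log2 difference was 1.61 without V327.

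Tbx3 had 4.07 ± 1.28 CPM in control atria and 10.8 ± 0.426 CPM in ventricles, a log2 difference of -1.41 ± 0.20 with an adjusted P value of 5.0e-04 by edgeR. Smoc2 had 45.7 ± 5.15 and 115.2 ± 9.23 CPM, a log2 difference of -1.34 ± 0.098 with an adjusted P value of 1.1e-05 by edgeR. Both genes were lower in atria in each of the 3 mice. Tbx18 was 1.40-fold higher in atria (adjusted P value of 0.0053 by edgeR), under the fold change limit, and Ntm did not pass (log2 difference of -0.20 ± 0.22, adjusted P value of 0.47 by edgeR).

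Atrial and ventricular libraries had TMM factors of 1.12 to 1.19 and of 0.815 to 0.907, so the scaling bears on each chamber difference. With library totals alone, the median over all genes moved by 0.45 in controls and by 0.39 in CUG960 mice. Ntm in controls then changed sign, to 0.26, and Tbx18 passed both limits in both genotypes, at 0.93 in controls and 0.82 in CUG960. The other 5 genes kept their direction in controls.

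With the repeat RNA, 6 of 7 node genes differed between chambers by edgeR, beside 33.6% of the 17559 genes tested. Vsnl1 (log2 difference of 6.39 ± 0.78), Cpne5 (5.82 ± 0.29) and Shox2 (1.73 ± 0.63) were higher in atria. For Vsnl1, 62 of the 64 ventricular counts in CUG960 mice came from V123, and with so few counts in the other 2 ventricles no fold is given without it. The Vsnl1 call held without each of the 3 mice in turn, with adjusted P values of up to 0.0024 by edgeR. Tbx3 (-1.71 ± 0.16), Smoc2 (-1.48 ± 0.090) and Ntm (-0.72 ± 0.18) were higher in ventricles. Tbx18 had 0.42 ± 0.16 (adjusted P value of 0.049 by edgeR), under the fold change limit, and was called without V119 (0.67, adjusted P value of 0.0042). The median was 0.42 over the 7 genes and 0.0090 over all genes.

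The calls of Shox2 and Ntm in CUG960 mice were not firm. Shox2 had an adjusted P value of 0.044 by edgeR, 0.076 by DESeq2 and 0.36 without V120, where the log2 difference was 0.78. Ntm had an adjusted P value of 0.0075 by edgeR, 0.063 without V123, and 0.14 with library totals alone, where the log2 difference was -0.33.

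Whether the genotype difference itself differed between chambers was tested as the interaction of chamber and genotype. None of the 7 genes passed by edgeR or by DESeq2. Of the 18327 genes tested, 1.38% passed by edgeR and 660 genes by DESeq2. An unadjusted P value under 0.05 by edgeR was found for 0 of the 7, against 12.3% of all genes. All 7 interaction terms were negative, with a median of -0.49 against -0.0024 over all genes. For Vsnl1 the term was -0.76 ± 1.44 (adjusted P value of 0.89 by edgeR), a standard error that comes with its ventricular counts of 0 to 62, and it was 3.55 without V123. Ntm had -0.52 ± 0.26 (adjusted P value of 0.47 by edgeR), with a lower CUG960 mean in atria and a higher one in ventricles.

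Of 16 other channels, receptors and markers of the node, 5 rose in CUG960 atria by edgeR and 0 fell, beside 5.49% of genes called in either direction. They were Hcn4 (log2 fold change of 2.55 ± 0.36), Gjd3, a low-conductance connexin (1.55 ± 0.29), the calcium channels Cacna1d (1.10 ± 0.17) and Cacna1h (1.08 ± 0.24), and Rgs6, a brake on parasympathetic signaling in pacemaker cells (0.69 ± 0.11). The median was 0.47 over the 16 genes and -0.0088 over all genes, and 12 of the 16 values were positive and 4 negative. An unadjusted P value under 0.05 by edgeR was found for 12 of the 16, beside 30.2% of genes. The list was chosen with earlier results of these data known, and the study had reported the atrial rise of Hcn4. These counts therefore describe the list and do not test it. Igfbp5 was lower without overlap, at 650 ± 91.3 CPM in controls and 453 ± 13.6 CPM in CUG960. Its log2 fold change of -0.52 ± 0.099 (adjusted P value of 0.012 by edgeR) was under the fold change limit. Gjd3 rested on 15 to 30 counts in controls and 49 to 69 counts in CUG960, and lost the call in the fit of all 12 libraries (adjusted P value of 0.073 by edgeR).

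Levels of these genes did not overlap between genotypes in atria. Cacna1d was at 17.3, 13.8 and 10.2 CPM in V327, V333 and V334, and at 27.7, 28.6 and 32.3 CPM in V119, V120 and V123. Rgs6 was at 56.0, 50.6 and 41.0 CPM and at 75.4, 76.7 and 85.4 CPM in the same order of mice. Without V334, Rgs6 was under the fold change limit (0.57). Without V120 or V123, Cacna1h missed the threshold, with adjusted P values of 0.060 and 0.054 by edgeR.

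In ventricles, 1 of the 15 genes of this list that were tested rose, beside 4.75% of genes called. It was Rgs6, at 18.9 ± 0.915 CPM in controls and 36.7 ± 1.41 CPM in CUG960 (log2 fold change of 0.96 ± 0.079, adjusted P value of 1.7e-04 by edgeR). DESeq2 called 2, Rgs6 and Cacna1d. By edgeR, 10 of the 15 had an unadjusted P value under 0.05, beside 25.7% of genes. In edgeR, Cacna1d had a log2 fold change of 0.74 ± 0.21 with an adjusted P value of 0.053, and it passed both limits without V334 (adjusted P value of 0.013), with no filter on low counts (0.011), in the fit of all 12 libraries (0.035) and with library totals alone (0.038). Leaving out each mouse in turn gave Cacna1d values of 0.57 to 0.999, with adjusted P values of up to 0.15 by edgeR. Hcn4 had a log2 fold change of 1.12 ± 0.31 with an adjusted P value of 0.052 by edgeR. It passed without V120 (1.35, adjusted P value of 0.043), with no filter on low counts (0.00056) and with library totals alone (0.038), and its lowest value was 0.67, without V119. Popdc2, the gene of the list with the highest CPM in ventricles, had 0.55 ± 0.11 (adjusted P value of 0.017 by edgeR), under the fold change limit. Between control chambers, edgeR called 9 of the 16 as higher in atria and 4 as higher in ventricles, beside 34.9% of genes.

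**Figure D5:**
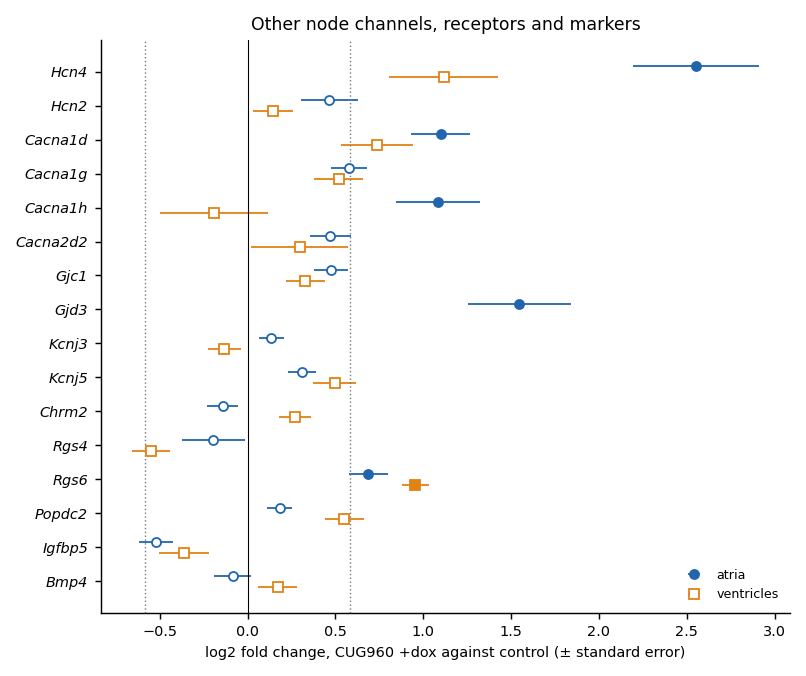
Log2 fold change of CUG960 +dox against control for the 16 other node genes in atria (blue circles) and ventricles (orange squares) with the standard error as bars; filled symbols passed both limits and dotted lines mark a 1.5-fold change. The 5 filled atrial symbols all lie to the right, with Hcn4 (2.55) the farthest; Gjd3 was not tested in ventricles.

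Of 11 transcription factors that act with or against the 4 node factors, 0 were called in either chamber by edgeR, beside 5.49% of genes in atria and 4.75% in ventricles. In atria 4 and in ventricles 2 had an unadjusted P value under 0.05, beside 30.2% and 25.7% of genes, and DESeq2 called 0 and 1. The medians were -0.25 in atria and 0.061 in ventricles. Tbx5, an activator of atrial genes, had a log2 fold change of -0.41 ± 0.081 in atria (adjusted P value of 0.014 by edgeR), and Nkx2-5, which Shox2 opposes, had -0.20 ± 0.12 (adjusted P value of 0.29 by edgeR). Tbx20, the gene of the list with the highest mean CPM, had -0.27 ± 0.13 in atria and 0.42 ± 0.095 in ventricles.

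Among 7 genes of working myocardium that Tbx3 is known to repress, 1 fell in atria and 1 rose in ventricles, beside the same 5.49% and 4.75% of genes. An unadjusted P value under 0.05 by edgeR was found for 5 in atria and 6 in ventricles, beside 30.2% and 25.7% of genes. Of the log2 fold changes, 5 were negative and 2 positive in atria, and 4 negative and 3 positive in ventricles. Gja5, the connexin of fast atrial conduction, fell by 1.51 on the log2 scale in atria (SE of 0.12, adjusted P value of 3.1e-04 by edgeR), from 40.8 ± 4.18 to 14.3 ± 2.08 CPM. Nppa rose in ventricles, from 62.6 ± 19.5 to 154.2 ± 68.9 CPM (adjusted P value of 0.031 by edgeR), and lost the call without V327, V333, V120 or V123 (adjusted P values of 0.063 to 0.10). The median of the 7 was -0.38 in atria and -0.11 in ventricles.

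Markers of other cell types that carry these genes were followed beside them. For the atria, counts called stand beside 5.49% of genes, and for the ventricles beside 4.75%. Counts at an unadjusted P value under 0.05 stand beside 30.2% and 25.7% of genes. Of 8 epicardial markers, 0 were called in atria by edgeR and 1 by DESeq2, and 2 had an unadjusted P value under 0.05. Their summed level was 264 to 287 CPM in control atria and 306, 281 and 178 CPM in V119, V120 and V123, led by Upk3b. Wt1, the factor that marks epicardium, was at 9.91 ± 1.03 and 9.65 ± 2.47 CPM, and both it and the sum overlapped between genotypes. The keratins Krt19 (19.5 ± 1.28 and 13.8 ± 4.01 CPM) and Krt8 (7.08 ± 0.703 and 4.61 ± 1.69 CPM) were the 2 of 8 that did not overlap in atria, beside 35.7% of all genes tested there. In ventricles 1 of 7 tested fell, Aldh1a2, an enzyme of retinoic acid synthesis (-0.73 ± 0.16, adjusted P value of 0.020 by edgeR), and it missed without V327, V333, V120 or V123 (0.053 to 0.069).

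All 8 epicardial markers were higher in atria than in ventricles, in both genotypes by edgeR and by DESeq2. Over all genes tested, edgeR called 34.9% between control chambers and 33.6% between CUG960 chambers. Upk3b was at 139.8 ± 7.15 CPM in control atria and at 1.05 ± 0.487 CPM in ventricles. The part of epicardium in the chamber differences of the node genes was not tested.

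Pericyte and smooth muscle markers, led by Acta2 in atria and by Rgs5 in ventricles, had 0 of 7 called in atria, beside 5.49% of genes, with sums of 380 to 445 CPM in controls and 330 to 499 CPM in CUG960. In atria 4 of 7 had an unadjusted P value under 0.05, beside 30.2% of genes. These were Cspg4 (-0.47 ± 0.13), Pdgfrb (-0.38 ± 0.11), Rgs5 (-0.36 ± 0.11) and Abcc9 (-0.32 ± 0.13). Of the 7 values 5 were negative and 2 positive. Atrial Acta2 had a higher mean in CUG960 (0.33 ± 0.24), with overlap. In ventricles 1 of 7 fell, beside 4.75% of genes, Myh11, smooth muscle myosin (-0.65 ± 0.17, adjusted P value of 0.039 by edgeR), and it missed without V327, V334, V119, V120 or V123 (0.073 to 0.13). There 5 of 7 had an unadjusted P value under 0.05, beside 25.7% of genes, and 6 of the 7 log2 fold changes were negative. The ventricular sums did not overlap, at 1078 to 1194 CPM in controls and 886 to 949 CPM in CUG960. Acta2 was at 120.3 ± 17.7 CPM in controls and 142.2 ± 52.4 CPM in CUG960 ventricles, in the opposite direction to the sum. The part of these cells in the ventricular level of Tbx3, and in the levels of Tbx18, which pericytes express, in either chamber, was not tested.

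Of 6 fibroblast markers, led by Dcn, 0 were called in either chamber by edgeR or DESeq2, and 5 in atria and 2 in ventricles had an unadjusted P value under 0.05, beside 30.2% and 25.7% of genes. All 6 had negative log2 fold changes in atria, with a median of -0.33. Atrial sums were 1676, 1972 and 2031 CPM in V327, V333 and V334 and 1608, 1729 and 1479 CPM in V119, V120 and V123. Smoc2 and the sum were both lowest in V123 among the atria, as were Dcn, Col1a1 and Col1a2 but not Pdgfra, Tcf21 and Lum.

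Endothelial markers, led in atria by Pecam1, fell there in 2 of 5 cases, beside 5.49% of genes called. These were Pecam1 (-0.71 ± 0.10, adjusted P value of 0.0043 by edgeR) and Tek (-0.62 ± 0.11, adjusted P value of 0.0083 by edgeR). Without V327, V333 or V119, Tek was under the fold change limit (-0.57, -0.55 and -0.56). Their sums were 602, 614 and 512 CPM in V327, V333 and V334 and 393, 444 and 408 CPM in V119, V120 and V123. The groups did not overlap, as for Tbx18, and the part of endothelium in the atrial differences was not tested. In ventricles 0 of 5 were called by edgeR or DESeq2, beside 4.75% of genes. All 5 were lower in CUG960 with an unadjusted P value under 0.05, beside 25.7% of genes, and Pecam1 had -0.53 ± 0.067 (adjusted P value of 0.0018 by edgeR), under the fold change limit. The ventricular sums were 624 to 768 CPM in controls and 481 to 533 CPM in CUG960, without overlap.

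Nerve markers bear on Vsnl1 and Ntm, which neurons also express. Of 9 neuronal markers 4 could be tested, led by Hand2, and Chat and Slc18a3, which define cholinergic neurons, were at 0 counts in all 12 libraries. Dbh, the enzyme that makes noradrenaline, fell in atria (-1.24 ± 0.18, adjusted P value of 0.0045 by edgeR) and in ventricles (-1.48 ± 0.28, adjusted P value of 0.011 by edgeR, 0.054 without V120). Summed neuronal levels overlapped in atria, at 29.5 to 34.6 CPM in controls and 29.6 to 32.1 CPM in CUG960. Without Hand2, which made up most of each sum, they did not overlap, at 5.17, 5.29 and 3.43 CPM in V327, V333 and V334 and 2.09, 2.22 and 2.16 CPM in V119, V120 and V123. Most of this remainder was Dbh. The other 3 markers tested, Hand2 (0.059 ± 0.067), Phox2a (0.013 ± 0.49) and Prph (-0.18 ± 0.31), overlapped between genotypes in atria. Their part in the results was not tested.

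Schwann cell markers, led by Mbp, had 1 of 4 called in atria, Mbp (-0.66 ± 0.081, adjusted P value of 0.0020 by edgeR). In ventricles 0 of 3 tested were called by edgeR or DESeq2, and 1 had an unadjusted P value under 0.05. Atrial sums were 27.2, 32.1 and 30.9 CPM in V327, V333 and V334 and 21.01, 19.47 and 19.01 CPM in V119, V120 and V123, without overlap. Their part in the results was not tested.

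Cardiomyocyte markers gave the chamber content of the same libraries. Of 5 atrial markers 0 were called in atria by edgeR or DESeq2, with 2 at an unadjusted P value under 0.05, and in ventricles Nppa rose and Bmp10 fell (-4.06 ± 0.50, adjusted P value of 0.0016 by edgeR). Of the ventricular markers 4 could be tested in atria, where Lbh rose (0.64 ± 0.063, adjusted P value of 7.8e-04 by edgeR) and Hey2 fell (-0.67 ± 0.19, adjusted P value of 0.049 by edgeR). Hey2 missed without V327, V333, V334, V119 or V120 (0.098 to 0.12). Summed atrial markers were 26258 to 28840 CPM in control atria and 21649 to 23729 CPM in CUG960 atria. Of these, Nppa was at 15894 ± 1098 and 11872 ± 491 CPM and Myl4 had a ratio of the CUG960 to the control mean of 0.816, both without overlap, while Myl7, Sln and Bmp10 had ratios of 1.02, 0.997 and 1.02.

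The genes whose pattern over the 6 atrial libraries was most like each node gene were found among all genes tested, by Pearson r of log2 CPM, as a description of the same 6 libraries and both genotypes. For Vsnl1 they were Ctnnbl1 (r = 0.998) and Cldn34c1 (0.996), and for Tbx18 Ccdc88c (0.998) and Pcdhb20 (0.997). Tbx3 was most like Gm5874 (0.997) and F630040K05Rik (0.994), and Shox2 most like Slc6a6 (0.984) and Brd1 (0.982). Smoc2 went with Arhgap17 (0.987) and Gm45709 (0.987), Cpne5 with Tmc8 (0.996) and Olfml2a (0.996), and Ntm with Mroh7 (0.996) and Lfng (0.990). Each r rests on 6 points, and the values given for each node gene were the 2 highest among 17650 genes.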

How the data were processed

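Atria and ventricles of 6 mice gave 12 poly(A)-selected, stranded RNA-Seq libraries. The authors mapped reads to GRCm38, estimated expected counts per gene with RSEM 1.3.1 (tool and build per the submitters' processing notes) and deposited whole numbers, neither scaled nor filtered. RSEM shares multimapping reads among loci, and totals were 116127966 to 160676189 counts per library.

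Symbols were matched to the 51826 entries. CPM were computed from TMM library sizes over all 12 libraries, and CPM per kilobase used the union of GENCODE M21 exons. Each comparison was fitted on its own libraries with edgeR 4.0.16 in R 4.3.3 (filterByExpr with a minimum of 10 counts, TMM, quasi-likelihood test, Benjamini-Hochberg adjustment over all genes tested). Genes with an adjusted P value below 0.05 that changed at least 1.5-fold were called. The interaction of chamber and genotype used all 12 libraries without a fold change limit. The steps were tested on simulated data.

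The replicates are separate mice, and each gave both chambers, so the mouse number pairs chambers but not genotypes. As a check, deviations from the group means were correlated across genes, and r was 0.030 to 0.135 between the chambers of a mouse and -0.141 to 0.054 between mice.

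The 8 genes, the 11 other gene lists and the tests were chosen with earlier results of these data known. Named genes were all 8 genes, Hcn4, genes of the lists of node, transcription factor and working myocardium genes called in either chamber, and, of each cell type list, the most abundant gene, genes at 0 counts and called genes. A few genes were left out of the lists and are not reported here. Wt1, Krt19, Krt8, Acta2, Cspg4, Pdgfrb, Abcc9, Myl7, Myl4, Sln, Phox2a, Prph, the fibroblast markers other than Dcn and genes named for a value just outside the limits were added after their values were seen. The alternatives were DESeq2 1.42.0, RLE size factors, no filter on low counts, no fold change limit, a log2 fold change of at least 1.5, all 12 libraries in a single fit, the mouse as a block, leaving out each mouse in turn and, added after seeing the data, scaling by library totals alone. Figures were made with Python 3.11.15 and matplotlib 3.10.9.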

Additional observations from a re-analysis of the deposited data

Results flagged for a closer look

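For 3 of 77 genes tested from the lists that accompany the node genes, beside 1.38% of all 18327 genes, the genotype difference itself differed between chambers, by the interaction term in edgeR (quasi-likelihood, adjusted by Benjamini-Hochberg). None of the 8 node genes was among them. Bmp10, a growth factor of atrial myocardium, had an interaction of 4.0978 on the log2 scale (adjusted P value of 0.0021). It was at 1554 ± 492 CPM in control atria and 1586 ± 175 CPM in CUG960 atria (SD, n = 3), and at 2.86 ± 0.772 and 0.173 ± 0.124 CPM in ventricles. Myl7, Myl4 and Sln were likewise higher in each control ventricle than in V119 and V120 ventricles, but highest in V123. The part of atrial RNA in the Bmp10 difference was not tested. Nppa had an interaction of -1.7207 (adjusted P value of 0.049), with 15894 ± 1098 and 11872 ± 491 CPM in atria and 62.6 ± 19.5 and 154.2 ± 68.9 CPM in ventricles. Gja1, the main connexin of working myocardium, had an interaction of -0.637 (adjusted P value of 0.0080), with 255.1 ± 7.64 and 205.4 ± 7.14 CPM in atria and 249.4 ± 6.85 and 312.2 ± 28.8 CPM in ventricles. Without 1 mouse at a time, Bmp10 passed each time (adjusted P values of 0.0059 to 0.019), Gja1 missed without V327 (0.061), and Nppa missed without V327, V333, V120 or V123 (0.15 to 0.24) and, at 0.050, with RLE size factors. DESeq2 called these 3 and also Gja5 (adjusted P value of 0.0061), Cacna1h (0.026) and 3 of the 11 transcription factors, Gata4, Tbx5 and Tbx20. Over all 18327 genes, DESeq2 called 660 and edgeR 253.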

How the results depend on the processing

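Of the node genes in atria, edgeR called 1, DESeq2 2, no fold change limit 2, a log2 fold change of at least 1.5 gave 0, the fit of all 12 libraries 0, and leaving out 1 mouse 1 to 2. In ventricles it was 0, and 0 to 1 without 1 mouse. In control chambers it was 5, and 3 at a log2 fold change of at least 1.5. Leaving out 1 mouse turned signs for Shox2 (-1.1133 to 0.7204 in atria, -0.1922 to 0.7163 in ventricles, -1.447 to 0.2711 as interaction), Cpne5 (-0.3022 to 0.312) and Smoc2 (-0.0276 to 0.0741) in ventricles, and the interactions of Tbx18 (-0.1841 to 0.2057) and Vsnl1 (-1.4427 to 3.5543). It did so for Bmp10 (-0.1923 to 0.2545) and Myh11 (-0.2015 to 0.2664) in atria, Cacna1h in ventricles (-0.4472 to 0.1364) and the interactions of Cacna1d (-0.0738 to 0.6122), Gjd3 (-0.7507 to 1.1111) and Hey2 (-0.3386 to 0.1617). Library totals alone turned Ntm between control chambers to 0.26. The cause was not tested. With the mouse as a replicate block, 5 node genes were called between control chambers, 6 between CUG960 chambers and 0 for the interaction, as without it. The interaction of Gjd3 turned to 0.0029, and those of Gja5 (adjusted P value of 0.048 by edgeR), Aldh1a2 (0.047) and Myh11 (0.050) then passed, while the block changed no other call of a named gene. Over all genes, edgeR called 969 in atria (2573 without a fold change limit, 216 at a log2 fold change of 1.5), 804 in ventricles (1680, 199), 6098 between control chambers (9726, 2233) and 5900 between CUG960 chambers (9517, 2200). For the interaction it called 253, DESeq2 660, and edgeR without 1 mouse 74 to 131. With library totals alone, 678 genes were higher and 315 lower in atria (594 and 375 with TMM), 779 and 187 in ventricles (507 and 297), 6918 and 1452 between control chambers (3194 and 2904), and 6028 and 1539 between CUG960 chambers (3021 and 2879). At this depth Isl1 could not be tested, and ventricular Vsnl1 could not be compared between genotypes.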
